A study of Mus musculus with 10 samples.

Results

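The genes described are 4 fibroblast growth factor (FGF) receptors, FGFR1 to FGFR4, and the 6 FGF ligands FGF1, FGF2, FGF7, FGF9, FGF10 and FGF18. They were chosen by symbol as a family active in meninges and skull, and all 10 are among the 16895 genes measured. The study sequenced RNA of 10 meningioma-like mouse tumors, made with YAP1-MAML2-v2 (n = 7) or with NLS-2SA-YAP1 (n = 3). YAP1 is the coactivator that the Hippo pathway holds back, and MAML2 serves Notch signaling. By the series title, NLS-2SA-YAP1 is constitutively active. Per the labels, 6 tumors were extra cranial, 3 extra axial and 1 intra ventricular.

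Every tumor grew in a Cdkn2a null mouse in which Nestin drives tv-a, the receptor of the avian RCAS virus, so both constructs share that background and no tumor-free tissue was analysed here. Chicken DF1 cells that made the virus were injected under the arachnoid at postnatal day 0 to 3, and the sources used here give no age at collection. Tumors were frozen and ground whole, so each library is bulk tissue. In such libraries fewer cells of a type and less RNA per cell cannot be told apart. Extra cranial tumors are replicates 1, 3, 4 and 5 of YAP1-MAML2-v2 and replicates 2 and 3 of NLS-2SA-YAP1. Extra axial tumors are replicates 2 and 6 of YAP1-MAML2-v2 and replicate 1 of NLS-2SA-YAP1, and replicate 7 of YAP1-MAML2-v2 is the intra ventricular one. The deposited files of YAP1-MAML2-v2 replicates 6 and 7 share a number in their names, and the sources used here do not say whether they came from 1 mouse. Nor is it stated that the other tumors came from separate mice, so p-values measure the spread between these libraries.

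FGF ligands bind receptor tyrosine kinases on the cell surface together with heparan sulfate, and the receptors signal through the adaptor FRS2 to the RAS-ERK cascade. In skull and meninges FGF signals regulate suture closure, bone growth and mesenchymal cell growth. Ligands of the FGF7 and FGF10 subfamily act mainly on the epithelial splice form of FGFR2, while FGF1 binds the receptors broadly. The values are per gene, so splice forms of a receptor cannot be told apart.

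Library totals ran from 28001143 to 44544314, but the deposited values do not look like plain read counts, so depth is unknown. Levels are given as CPM, values scaled to a common library total. As a check of the labels, YAP1 had 421 to 592 CPM with NLS-2SA-YAP1 and 122 to 174 CPM with YAP1-MAML2-v2. The labels give DF1, the injected chicken line, as cell type. The 14 meningeal and arachnoid markers summed to between 5777 and 28153 CPM per tumor, but replicate 5 of YAP1-MAML2-v2 had PTGDS at 0 and replicate 6 had CLDN11 at 0. Replicate 7 stood apart by its 6 astrocyte markers, 2935 CPM against 3.91 to 265 CPM elsewhere, and by its 8 neuron markers, 352 CPM against 4.27 to 41.7 CPM. Its 7 ependyma and choroid plexus markers were also highest, at 231 CPM against 0.0851 to 188 CPM elsewhere. Its 6 oligodendrocyte markers were not, at 84.6 CPM against 35.8 to 461 CPM elsewhere.

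FGF7 ran from 0.255 to 337 CPM over the tumors, FGF9 was at 0 or 1 in 2 of them, and FGF10 was above 0 in 1. The sequences before their RefSeq start sites (GRCm38.p6, plus strand, 5′ to 3′) are shown because FGF7 and FGF10 are close relatives with unlike patterns in these tumors. Each is the 250 bases before the start, at chr2:126034408-126034657 for Fgf7, chr13:118714449-118714698 for Fgf10 and chr14:58072436-58072685 for Fgf9, and holds no annotated exon base of its own gene. Capitals mark TGGGAA on either strand, the core of the site bound by RBPJ, the DNA-binding partner of MAML coactivators.
Fgf7: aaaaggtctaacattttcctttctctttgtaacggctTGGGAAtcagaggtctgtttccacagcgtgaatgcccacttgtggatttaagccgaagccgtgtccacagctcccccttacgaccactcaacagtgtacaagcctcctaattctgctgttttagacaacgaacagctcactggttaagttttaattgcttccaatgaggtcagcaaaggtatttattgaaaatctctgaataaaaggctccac
Fgf10: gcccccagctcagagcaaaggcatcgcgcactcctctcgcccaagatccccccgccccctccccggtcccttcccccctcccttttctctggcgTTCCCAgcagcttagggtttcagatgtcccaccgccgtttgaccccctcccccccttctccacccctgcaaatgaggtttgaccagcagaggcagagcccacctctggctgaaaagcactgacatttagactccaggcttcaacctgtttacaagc
Fgf9: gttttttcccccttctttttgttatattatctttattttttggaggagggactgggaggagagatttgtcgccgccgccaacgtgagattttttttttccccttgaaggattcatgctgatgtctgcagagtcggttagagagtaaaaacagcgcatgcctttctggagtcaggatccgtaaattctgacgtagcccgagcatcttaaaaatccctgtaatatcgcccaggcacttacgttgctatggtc

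TGGGAA stood 213 bases before the Fgf7 start, and its reverse complement began 156 bases before the Fgf10 start. The Fgf9 window held neither. Among the other members with a listed start, the Fgfr2 window held TGGGAA on 1 strand, 104 bases before its start. The windows of Fgf2, Fgfr3, Fgf18 and Fgfr4 held none. The Fgf10 and Fgf9 windows lie inside the gene spans given below for these genes. Of 32851 windows of this length in the table, 21.6% hold TGGGAA on 1 strand or the other. The TEAD motif CATTCC, which can overlap TGGGAA, is in 12.6% and the AP-1 motif TGANTCA in 6.75%, and neither is in these 3 windows. A match only describes the letters.

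Per kilobase of exon, FGFR1 was the most abundant of the 10 genes by median, and 6 of 10 tumors had it first. On that scale its level ran from 10.9 to 40.2 CPM per kb with a median of 25.7. FGF2 followed with a median of 8.09 CPM per kb (2.92 to 26.3) and was first in 3 tumors. FGFR3, a receptor also made by astrocytes and cartilage, had a median of 5.11 CPM per kb and FGF9 one of 5.01. The medians of FGFR2, FGF7 and FGF18 were 3.48, 3.32 and 1.35 CPM per kb. FGF1 (0.448), FGFR4 (0.19) and FGF10 (0) stood lowest on that scale. The ranges of neighbours in this order overlapped throughout. The length is the union of all annotated exons, which for Fgfr2 includes a transcript model far longer than the others.

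**Figure D1:**
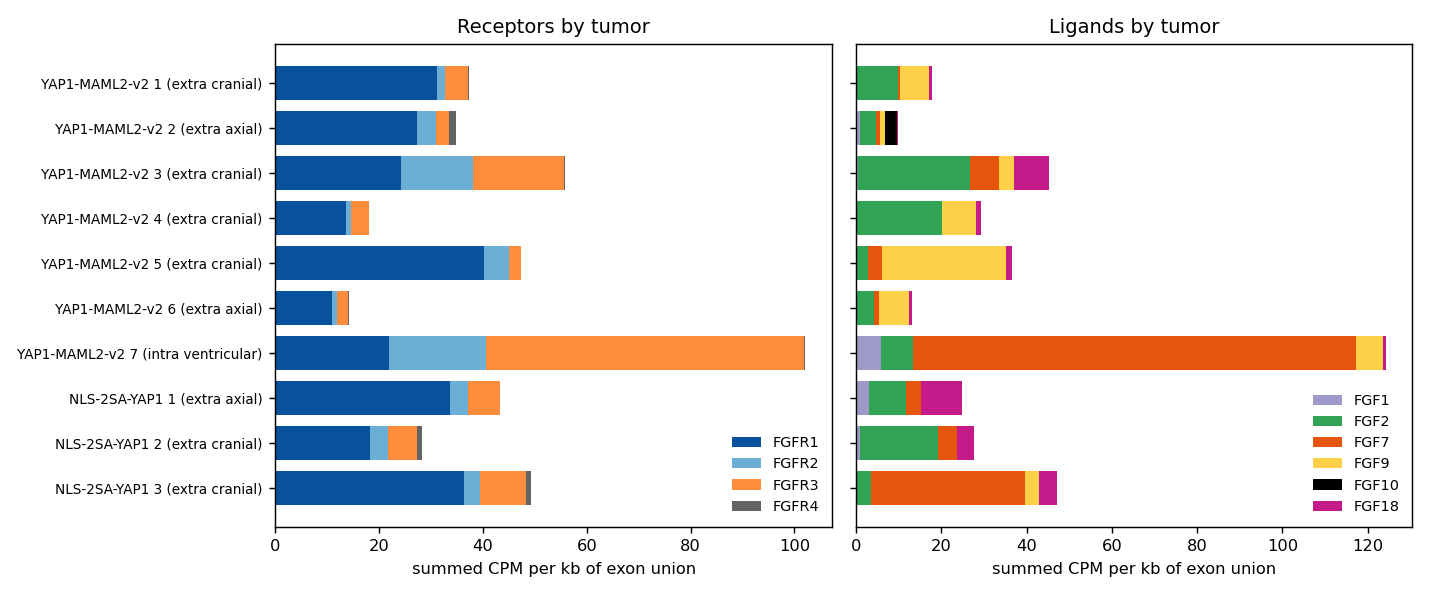
Stacked bars give, for each of the 10 tumors, the summed level of the 4 receptors (left) and the 6 ligands (right) in CPM per kilobase of exon union. FGFR1 makes up most of the receptor bar except in YAP1-MAML2-v2 replicates 3 and 7, while the leading ligand changes from tumor to tumor.

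FGFR1 took 64.4% to 84.8% of the summed receptor level per kilobase in 8 tumors. It took 43.4% in YAP1-MAML2-v2 replicate 3 and 21.4% in replicate 7, where FGFR3 took 60.1%. The leading ligand was FGF2 in 5 tumors, FGF9 in YAP1-MAML2-v2 replicates 5 and 6, FGF7 in YAP1-MAML2-v2 replicate 7 and NLS-2SA-YAP1 replicate 3, and FGF18 in NLS-2SA-YAP1 replicate 1. FGFR1 was thus the leading receptor in 9 of 10 tumors, and no ligand led in more than 5.

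The first comparison asked whether the constructs gave tumors with different FGF genes. No receptor or ligand passed the test. edgeR's quasi-likelihood test called 0 of the 9 members it could test, against 0.0146% of all 13707 genes tested (adjusted p under 0.05, Benjamini-Hochberg over all genes). At an unadjusted p under 0.05 it had 1 member, FGF7, where 13.1% of all genes tested stood. DESeq2, limma-voom with quality weights and limma on log2 CPM called 0 members, against 5.3%, 0.671% and 0.0292% of the genes each gave an adjusted p. At an unadjusted p under 0.05 they had 2, 3 and 3 members, against 17.6%, 19.7% and 13.9% of all genes, and DESeq2 gave FGF18 no p. Construct groups did not overlap in 0 members, against 6.73% of all genes tested (3.71% with NLS-2SA-YAP1 higher and 3.03% with it lower). The meningeal and arachnoid markers summed to 15277 to 28153 CPM with NLS-2SA-YAP1 and to 5777 to 21918 CPM with YAP1-MAML2-v2, and their part in the levels was not tested. A positive log2 fold change below means a higher fitted level with NLS-2SA-YAP1.

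**Figure D2:**
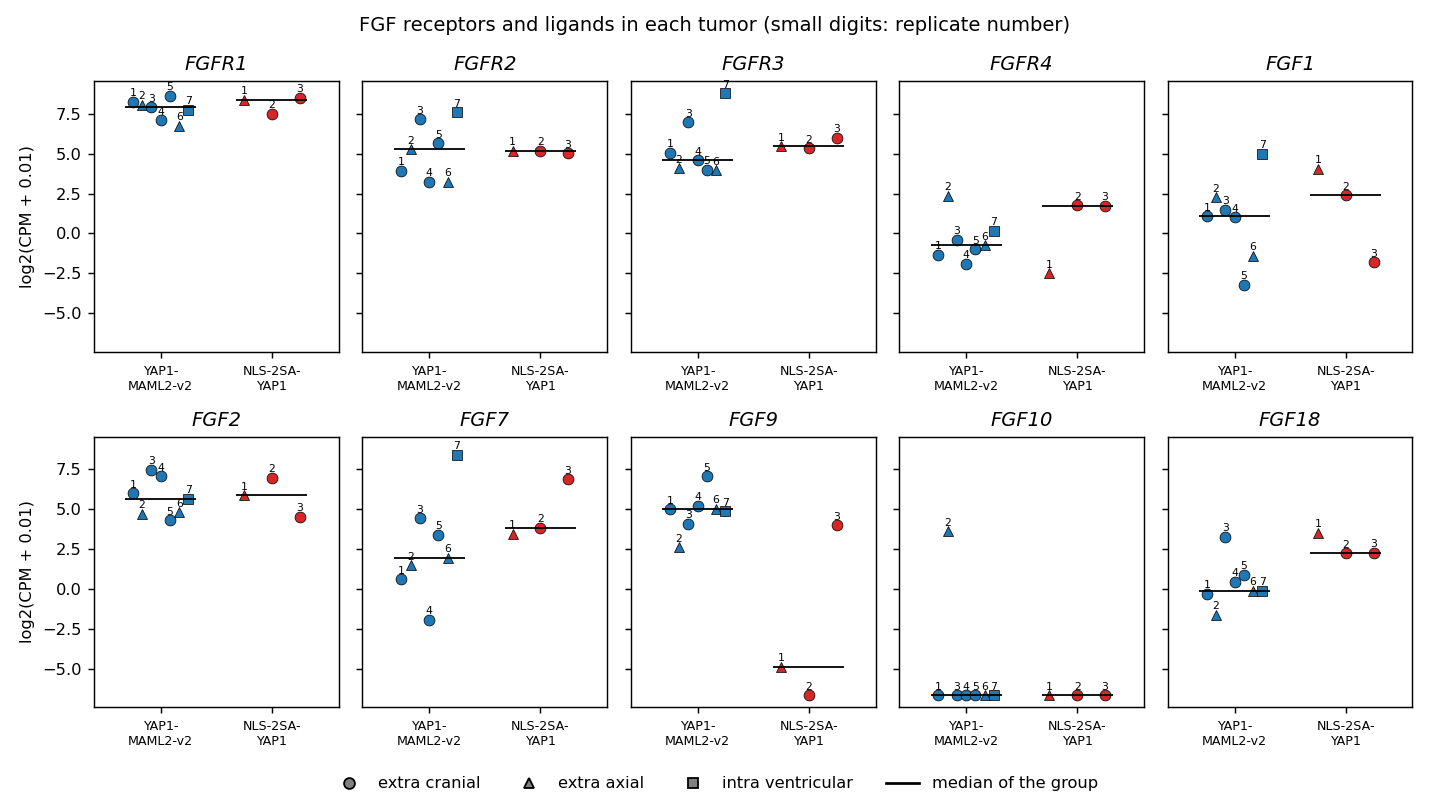
Each panel shows 1 gene as log2(CPM + 0.01), with a point per tumor, the replicate number above it, the construct on the x axis and the region by shape; lines are group medians. FGFR1 is at a similar height in all tumors, FGF9 is near the floor in NLS-2SA-YAP1 replicates 1 and 2, and FGF10 is off the floor in YAP1-MAML2-v2 replicate 2 alone.

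FGFR1, a receptor of mesenchymal cells, lies on chromosome 8 at 25513654 to 25575718 (mm10, as are the positions below). The NLS-2SA-YAP1 tumors had 332, 179.7 and 358 CPM in replicates 1 to 3. The YAP1-MAML2-v2 tumors had 107 CPM at the lowest, 239 at the median and 397 at the highest. All 3 NLS-2SA-YAP1 values lay inside that range. The means were 290.0 ± 96.4 CPM (SD, n = 3) and 239 ± 99.3 CPM (SD, n = 7), a log2 fold change of 0.29 (SE 0.46, adjusted p = 0.852 in edgeR). Without NLS-2SA-YAP1 replicate 1 it was -0.021.

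FGFR2, whose splice forms serve epithelium and mesenchyme, lies on chromosome 7 at 130162451 to 133123350. Its NLS-2SA-YAP1 values, 36.1, 35.9 and 32.5 CPM, were close together. The YAP1-MAML2-v2 values ran from 9.47 through a median of 38.7 to 192 CPM. The narrow group thus lay within the wide one, and the log2 fold change was -0.21 (SE 0.84, adjusted p = 0.951 in edgeR). Its sign turned without replicate 2 of YAP1-MAML2-v2 (0.023) and without replicate 3 (0.51).

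FGFR3, on chromosome 5 at 33721674 to 33737068, had 43.8, 40.1 and 63.4 CPM in the NLS-2SA-YAP1 tumors. YAP1-MAML2-v2 tumors had 15.6 CPM at the lowest, 24.1 at the median and 439 at the highest. The highest was the intra ventricular tumor, and replicate 3 followed with 126 CPM. The other 5 stood between 15.6 and 33 CPM, below every NLS-2SA-YAP1 value. The log2 fold change was 0.56 (SE 0.63, adjusted p = 0.765 in edgeR), and without the region term, which fits replicate 7 on its own, it was -0.96. Leaving out NLS-2SA-YAP1 replicate 1 gave 0.044, and leaving out YAP1-MAML2-v2 replicate 3 gave 1.22.

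In YAP1-MAML2-v2 replicate 7, the tumor with the most FGFR3, FGFR2 and FGF7, all 6 astrocyte markers stood above 1 in deposited value, as in replicate 4. The endothelial (954 CPM) and the macrophage and microglia (1713 CPM) marker sums were also highest in replicate 7. The filament gene GFAP had 1204 CPM there, and at most 39.9 CPM in any other tumor. The 12 bone and cartilage markers summed to 911 CPM there and to 28.4 to 849 CPM elsewhere. In replicate 3 the astrocyte sum was 95.4 CPM and the bone and cartilage sum 429 CPM. Both sums were higher in replicate 4, at 265 and 849 CPM, where FGFR3 had 24.1 CPM. Replicate 4 had the lowest FGFR2 (9.47 CPM) and FGF7 (0.255 CPM) of the 10 tumors. The part of these cells in the FGF levels was not tested.

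FGFR4, a receptor of liver and regenerating muscle, lies on chromosome 13 at 55152640 to 55168759 and was scarce. NLS-2SA-YAP1 replicates 1 to 3 had 0.168, 3.42 and 3.32 CPM. YAP1-MAML2-v2 tumors had 0.255 to 5.16 CPM with a median of 0.59. The 3 highest tumors were thus split over both constructs, and the log2 fold change was 1.82 (SE 1.42, adjusted p = 0.628 in edgeR). Leaving out NLS-2SA-YAP1 replicate 1 gave 2.80, and leaving out replicate 2 gave 1.39. The 13 skeletal muscle markers reached 79.9 and 270.2 CPM in replicates 2 and 3 of NLS-2SA-YAP1. They summed to 1.97 CPM in YAP1-MAML2-v2 replicate 2, which had the most FGFR4.

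FGF1, a ligand secreted without a signal peptide, lies on chromosome 18 at 38838673 to 38929472. Its levels were 16.8, 5.23 and 0.276 CPM in the NLS-2SA-YAP1 tumors. In YAP1-MAML2-v2 tumors they ran from 0.0989 through a median of 2.08 to 31.8 CPM, the highest being replicate 7. Both groups spread over more than an order of magnitude and overlapped. The log2 fold change was 1.43 (SE 1.19, adjusted p = 0.66 in edgeR). Leaving out NLS-2SA-YAP1 replicate 1 gave 0.64, and leaving out replicate 3 gave 2.14.

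FGF2, also secreted without a signal peptide and stored on heparan sulfate in matrix, lies on chromosome 3 at 37348346 to 37410108. The NLS-2SA-YAP1 tumors had 58.9, 125 and 23.3 CPM. The YAP1-MAML2-v2 tumors had 19.8, 50.8 and 178 CPM as lowest, median and highest. The means were 69 ± 51.5 CPM (SD, n = 3) and 71.5 ± 61.1 CPM (SD, n = 7), and the log2 fold change was 0.15 (SE 0.72, adjusted p = 0.963 in edgeR). Its sign turned in 6 of 19 alternatives.

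FGF7, or keratinocyte growth factor, is made by fibroblasts and lies on chromosome 2 at 126034658 to 126091185. NLS-2SA-YAP1 replicates 1 to 3 had 11.1, 14.2 and 117 CPM. YAP1-MAML2-v2 tumors outside the ventricle had 0.255 to 21.6 CPM with a median of 3.31, and the intra ventricular tumor 337 CPM. Among tumors outside the ventricle, replicate 3 (21.6 CPM) stood above the lower 2 NLS-2SA-YAP1 tumors, and the other 5 stood below all of them. The log2 fold change was 2.60 (SE 1.08), with an unadjusted p of 0.04 and an adjusted p of 0.359 in edgeR. It was 1.24 to 3.34 without 1 tumor, and -0.18 without the region term (adjusted p = 0.977 in edgeR).

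FGF9, a secreted ligand with high affinity for FGFR3 that is needed for skeletal growth, lies on chromosome 14 at 58070547 to 58112720. It was listed at 1 and 0 in NLS-2SA-YAP1 replicates 1 and 2, and replicate 3 had 15.9 CPM. All 7 YAP1-MAML2-v2 tumors had more than a trace, with 6.13 CPM at the lowest, 31.8 at the median and 135 at the highest. Replicate 3 of NLS-2SA-YAP1 lay inside that range, so the groups overlapped. No fold is read from FGF9, because values of 0 and 1 in these files have no clear scale. Its edgeR adjusted p was 0.444, and DESeq2, limma and the other alternatives gave 0.122 to 0.736.

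FGF10, the second ligand of the FGF7 subfamily, which directs limb and lung budding, lies on chromosome 13 at 118669791 to 118792115. It was listed at 0 in 9 tumors. In YAP1-MAML2-v2 replicate 2, an extra axial tumor, it was listed at 467, or 12.2 CPM. The gene did not pass the filter on low values and was not tested in the main fit. With no filter all 10 members were tested, and 0 were called between constructs or regions. The same tumor had 3.01 CPM of KL, a co-receptor gene listed at 0 or 1 in all others but replicate 7. Its adipocyte markers summed to 10.5 CPM, against 0.298 to 15.8 CPM over all tumors.

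FGF18, a ligand of bone and cartilage growth, lies on chromosome 11 at 33117430 to 33147400. The NLS-2SA-YAP1 tumors had 11.6, 4.75 and 4.88 CPM. The YAP1-MAML2-v2 tumors had 0.315, 0.927 and 9.69 CPM as lowest, median and highest. Replicate 3, with 9.69 CPM, was the only one of the 7 above any NLS-2SA-YAP1 value. The log2 fold change was 1.98 (SE 1.21, adjusted p = 0.516 in edgeR), and 2.79 without that tumor. Without NLS-2SA-YAP1 replicate 1, the highest of all 10, it was 0.47. The bone and cartilage marker sum was 45.4 to 199 CPM with NLS-2SA-YAP1, against 28.4 to 911 CPM with YAP1-MAML2-v2.

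**Figure D3:**
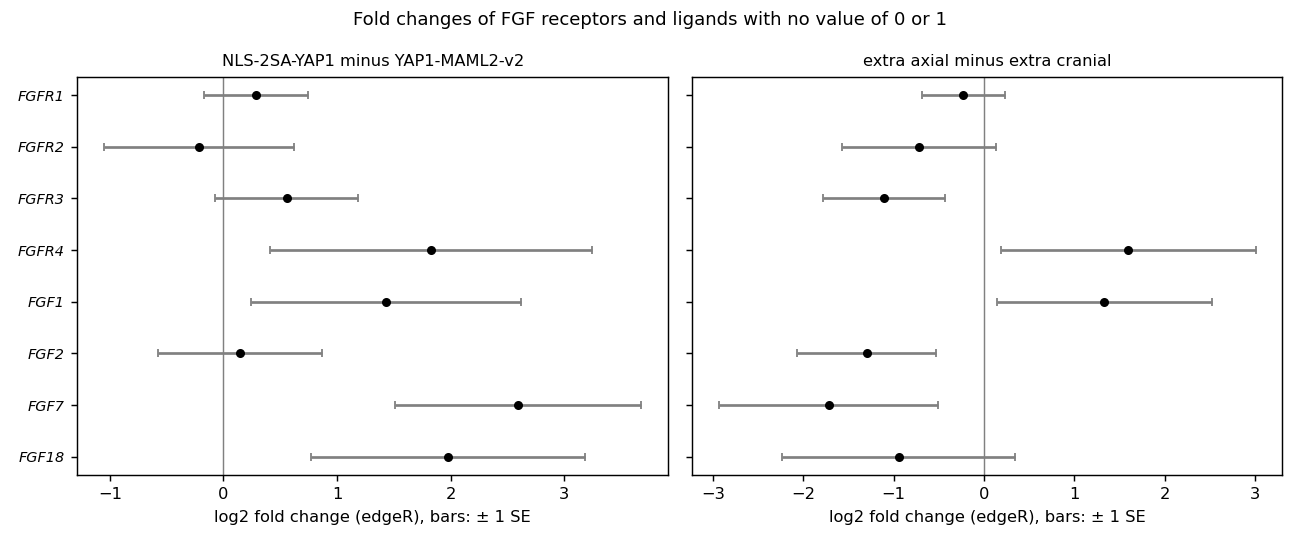
Points give edgeR log2 fold changes with bars of ± 1 SE for the 8 receptors and ligands that hold no value of 0 or 1, between constructs (left) and between regions (right). FGF7 lies farthest from 0 in both panels, at 2.60 between constructs and -1.72 between regions, and none of the 8 passed the test.

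The second comparison was between extra axial (n = 3) and extra cranial (n = 6) tumors, and a log2 fold change here is extra axial minus extra cranial. No member was called by edgeR, where 0% of all genes tested were called, nor by DESeq2 (0.23% of all genes called), limma-voom with quality weights or limma (both 0%). At an unadjusted p under 0.05 edgeR had 0 members, against 3.01% of all genes tested (1.01% higher and 2% lower in extra axial tumors). Region groups did not overlap in 0 members, against 0.89% of all genes tested (0.387% higher and 0.503% lower). Of the 4 receptors 3 had a fitted level lower in extra axial tumors, and of the 5 tested ligands 4 did, where 50.6% of all genes tested were lower. Over the alternatives 2 to 4 receptors and 3 to 4 ligands were lower. The median difference, on the log2 scale, was -0.47 for the receptors, -1.30 for the ligands and -0.01 for all genes tested. Over the alternatives the receptor median ran from -0.98 to 0.052 and the ligand median from -1.56 to -0.0077. Both upper ends came with a block by replicate number, fitted to replicates 1 to 3 of each construct alone. FGF9 is counted here by its fitted sign, although its size is not read.

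Most marker lists of other cell types also had most members lower in extra axial tumors, where 50.6% of all genes tested were lower. Besides the lists detailed below, endothelial markers were lower in 5 of 6. Keratinocyte markers were lower in 4 of 5, as were macrophage and microglia markers. Other lists did not: 2 of 2 tested adipocyte markers and 3 of 5 oligodendrocyte markers were higher. The meningeal and arachnoid markers had 7 higher and 7 lower, and the 2 tested ependyma and choroid plexus markers had 1 of each. The ranges of the sums below overlapped between regions, and the part of these cells in the FGF levels was not tested. All 8 tested skeletal muscle markers were lower by the fit, 2 of them at an unadjusted p under 0.05 in edgeR, against 2% of all genes tested. Their sums were 1.84 to 2.92 CPM against 1.55 to 270.2 CPM in extra cranial tumors. The bone and cartilage markers were lower in 7 of 9, with sums of 28.4 to 199 CPM against 45.4 to 849 CPM. The neuron markers were lower in 5 of 5, with sums of 7.16 to 9.05 CPM against 4.27 to 41.7 CPM, and the astrocyte markers in 4 of 5, with sums of 3.91 to 28.3 CPM against 12 to 265 CPM.

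FGF2 had 26.2 and 28.1 CPM in the extra axial YAP1-MAML2-v2 tumors and 58.9 CPM in the extra axial NLS-2SA-YAP1 tumor. The extra cranial tumors had 19.8 CPM at the lowest, 94.3 at the median and 178 at the highest. The extra axial values thus sat in the lower part of a range they shared. The log2 fold change was -1.30 (SE 0.77, unadjusted p = 0.122 in edgeR), and it lay between -1.89 and -0.86 in all 19 alternatives.

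FGFR3 had 16.9 and 15.6 CPM in extra axial YAP1-MAML2-v2 tumors and 43.8 CPM in the extra axial NLS-2SA-YAP1 tumor. Extra cranial tumors had 15.9, 36.6 and 126 CPM as lowest, median and highest. Its log2 fold change was -1.11 (SE 0.67, unadjusted p = 0.131 in edgeR), and negative in all 19 alternatives, with -0.46 without YAP1-MAML2-v2 replicate 3. FGF7 had 2.78, 3.85 and 11.1 CPM in the extra axial tumors against 0.255 to 117 CPM in the extra cranial ones, whose median was 12.4. Its log2 fold change was -1.72 (SE 1.22, unadjusted p = 0.191 in edgeR), and -0.98 without YAP1-MAML2-v2 replicate 3. With a replicate block it was 0.25, where 0.0455% of all genes were called. That block took only replicates 1 to 3 of each construct, which leaves little to estimate the spread. The extra axial FGF7 values lay inside the extra cranial range, and the lowest FGFR3 value of all was extra axial.

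For the remaining members the extra axial values also overlapped the extra cranial ones. FGFR1 had a log2 fold change of -0.23 (SE 0.46), FGFR2 -0.72 (SE 0.85) and FGF18 -0.94 (SE 1.29). FGF1 had 1.33 (SE 1.19) and FGFR4 1.60 (SE 1.41). Leaving out 1 tumor moved FGFR2 to between -1.19 (without NLS-2SA-YAP1 replicate 1) and -0.00015 (without YAP1-MAML2-v2 replicate 3). It moved FGF18 to between -2.50 (without NLS-2SA-YAP1 replicate 1) and -0.049 (without YAP1-MAML2-v2 replicate 2), and FGF1 to between 0.55 and 2.04. FGFR4 depended on 1 tumor: without YAP1-MAML2-v2 replicate 2 it was -1.01. It was also negative in both limma fits. FGF9, listed at 1 in 1 of the extra axial tumors, is given no fold.

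The difference between constructs was also compared between regions, over the 9 tumors outside the ventricle. The interaction passed edgeR's test for 0 members, against 0.00741% of all 13487 genes tested. At an unadjusted p under 0.05 it had 1 member, against 7.14% of those genes (3.59% with a positive and 3.55% with a negative interaction). That member was FGFR4 (unadjusted p = 0.0185, adjusted p = 0.658 in edgeR), and DESeq2 gave it an adjusted p of 0.0481, where it called 1.59% of all genes. The extra axial values behind it were 0.168 CPM in the NLS-2SA-YAP1 tumor and 5.16 and 0.59 CPM in the YAP1-MAML2-v2 tumors. With 1 extra axial NLS-2SA-YAP1 tumor, the spread of that group is taken from the others.

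Of the other ligands, 12 secreted family members were listed, and none passed the filter on low values. FGF17, a ligand of the FGF8 subfamily, reached 5.02 CPM in YAP1-MAML2-v2 replicate 7 and 2.23 CPM in NLS-2SA-YAP1 replicate 1, and was listed at 0 or 1 in the other 8. FGF22 reached 0.498 CPM, FGF19 0.307 CPM and FGF21 0.202 CPM. FGF20 was listed at 0 in every tumor. FGF11 to FGF14 encode homologous factors that stay inside the cell and act on sodium channels, and 0 of the 4 were called between constructs or regions. FGF12, FGF13 and FGF14 were highest in replicate 7, at 25.7, 7.74 and 48.3 CPM, beside its neuron marker sum of 352 CPM. FGF11 was highest in YAP1-MAML2-v2 replicate 5 at 11.5 CPM.

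Among co-receptors and FGF carriers, 0 of the 7 tested members were called by edgeR between constructs, with 4 higher with NLS-2SA-YAP1 and 3 lower. At an unadjusted p under 0.05 there were 2 higher, against 5.44% of all genes tested, and 1 lower, against 7.61%. Construct groups did not overlap in 1 of the 7, against 6.73% of all genes tested. FGFRL1, an FGF receptor that lacks the kinase domain, had 254, 200.5 and 208 CPM in the NLS-2SA-YAP1 tumors. The YAP1-MAML2-v2 tumors had 17.2, 94.8 and 200.4 CPM as lowest, median and highest. The groups did not overlap, by a margin of less than 1 CPM between NLS-2SA-YAP1 replicate 2 and YAP1-MAML2-v2 replicate 7. The log2 fold change of FGFRL1 was 1.54 (SE 0.53, adjusted p = 0.289 in edgeR).

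FGFBP3, a carrier that releases FGF from matrix, had 3.9, 2.8 and 1.58 CPM in NLS-2SA-YAP1 tumors against 0.231 to 3.13 CPM, with a log2 fold change of 2.29 (SE 0.85, adjusted p = 0.306 in edgeR). CDH2, the cadherin that binds FGFR1 on the cell surface, had 1.68, 13.8 and 3.47 CPM against a lowest, median and highest of 8.8, 47.8 and 96.5 CPM. Its log2 fold change was -2.84 (SE 0.94, adjusted p = 0.276 in edgeR). DESeq2 called CDH2 (adjusted p = 0.00745), where it called 5.3% of all genes. So did edgeR with a replicate block over replicates 1 to 3 alone (adjusted p = 0.0316), where 0.273% were called. The other 17 of 19 alternatives did not call CDH2. KLB, the co-receptor of hormone-like FGFs, was listed at 0 or 1 in 9 tumors and had 0.547 CPM in NLS-2SA-YAP1 replicate 2. Between regions 0 of 7 were called and 0 had an unadjusted p under 0.05. The smallest p-values were those of NCAM1, FLRT3 and FLRT1. The log2 fold changes of NCAM1 and FLRT3 were 0.74 (SE 1.02) and 0.48 (SE 0.68), and FLRT1, with 2 values of 0 or 1, is given none.

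Heparan sulfate proteoglycans and the enzymes that build heparan sulfate went both ways between constructs, with 10 of 24 higher with NLS-2SA-YAP1, 14 lower and 0 called by edgeR. In edgeR 3 of the 24 were higher at an unadjusted p under 0.05, against 5.44% of all genes tested, and 3 lower, against 7.61%. Construct groups did not overlap in 3 of the 24, against 6.73% of all genes tested. In limma-voom with quality weights 11 of the 24 were lower at any p. DESeq2 called GPC3, AGRN, HS6ST1 and GLCE, where it called 5.3% of all genes, and limma-voom with quality weights called the first 3 of them, where it called 0.671%. GPC3, a glypican on the cell membrane, had 25.1, 63.1 and 85.6 CPM in NLS-2SA-YAP1 tumors against a lowest, median and highest of 0.907, 1.96 and 9.07 CPM. Every NLS-2SA-YAP1 tumor was above every other tumor, and the log2 fold change was 4.12 (SE 0.85, adjusted p = 0.155 in edgeR). With a replicate block over replicates 1 to 3 alone, edgeR called GPC3 (5.08, adjusted p = 0.0102), as it did 0.273% of all genes. The other 16 of 19 alternatives did not call GPC3. AGRN, the matrix proteoglycan agrin, went the other way with 111, 67.2 and 74.6 CPM against 267, 363 and 484 CPM. Those groups did not overlap either, and the log2 fold change was -2.19 (SE 0.36, adjusted p = 0.0994 in edgeR).

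HS6ST1, which adds 6-O-sulfate to heparan sulfate, had 86.2, 64.4 and 49.6 CPM in NLS-2SA-YAP1 tumors and 15.6, 24.6 and 62.6 CPM as lowest, median and highest in YAP1-MAML2-v2 tumors. Its log2 fold change was 1.50 (SE 0.32, adjusted p = 0.161 in edgeR), and the groups overlapped through replicate 7 at 62.6 CPM. Between regions 15 of the 24 were lower in extra axial tumors, 0 were called by edgeR and 1 had an unadjusted p under 0.05, against 3.01% of all genes tested. That gene, the 3-O-sulfotransferase HS3ST1, had 0.144, 0.315 and 0.365 CPM in the extra axial tumors and 2.11 to 9.68 CPM in the extra cranial ones. The region groups did not overlap for HS3ST1, the 1 such gene of the 24, against 0.89% of all genes tested. Its log2 fold change was -3.72 (SE 0.99, unadjusted p = 0.00381 in edgeR). DESeq2 called it (adjusted p = 0.0024), as it did 0.23% of all genes. The other 18 of 19 alternatives did not call HS3ST1. SDC4 and GPC1, with the next smallest p-values, had -1.01 (SE 0.46) and -0.75 (SE 0.34).

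Among adaptors and downstream signal proteins 7 of 17 were higher with NLS-2SA-YAP1, 10 were lower and 0 were called by edgeR. At an unadjusted p under 0.05 in edgeR 2 were higher, against 5.44% of all genes tested, and 3 lower, against 7.61%. Construct groups did not overlap in 2 of the 17, against 6.73% of all genes tested. PTPN11, the phosphatase SHP2 that carries the FRS2 signal to RAS, had 192, 470 and 369 CPM in NLS-2SA-YAP1 tumors against 85.3 to 181 CPM in YAP1-MAML2-v2 tumors, without overlap. Its log2 fold change was 1.22 (SE 0.36, adjusted p = 0.228 in edgeR). CBL, a ubiquitin ligase that sends activated receptors to degradation, had 22.3, 45.8 and 37.5 CPM against 60.1 to 129 CPM, also without overlap, and a log2 fold change of -1.20 (SE 0.35, adjusted p = 0.228 in edgeR). MAP2K1, the kinase that activates ERK, had a log2 fold change of -1.31 (SE 0.41) between constructs and -0.96 (SE 0.41) between regions. DESeq2 called PTPN11, CBL and MAP2K1 between constructs (adjusted p = 0.0383, 0.0281 and 0.041), where it called 5.3% of all genes. Each was not called in the other 18 of 19 alternatives. FRS2 itself had 47.5, 78 and 75.4 CPM against 49.7 to 117 CPM. Between regions 10 of 17 were lower in extra axial tumors, with 0 called by edgeR and 1, MAP2K1, at an unadjusted p under 0.05, against 3.01% of all genes tested. STAT3 and CRK followed with -0.67 (SE 0.36) and -0.72 (SE 0.42).

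FGF-ERK target and feedback genes, which ERK activity switches on and which in part restrain it, were lower in NLS-2SA-YAP1 tumors in 11 of 13 members, where 51.6% of all genes tested were lower. The median log2 fold change was -0.62, against -0.03 for all genes tested. None passed edgeR's test, and 4 lower and 0 higher members had an unadjusted p under 0.05, against 7.61% and 5.44% of all genes tested. Construct groups did not overlap in 2 of the 13, against 6.73% of all genes tested. Members of such a list vary together, and the list was chosen with earlier results of these data known. The count of lower members was 8 to 11 over the alternatives, with 8 in limma-voom with quality weights and 9 without NLS-2SA-YAP1 replicate 1, where the median was -0.37.

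SPRY2, a Sprouty inhibitor of receptor tyrosine kinase signals, had 4.72, 10.6 and 4.85 CPM in the NLS-2SA-YAP1 tumors. The YAP1-MAML2-v2 tumors had 19.6 CPM at the lowest, 22.8 at the median and 102 at the highest. The groups did not overlap, and the log2 fold change was -2.84 (SE 0.70, adjusted p = 0.188 in edgeR). DESeq2 called SPRY2 (adjusted p = 0.000575), the sole member of the list it called, against 5.3% of all genes. The other 18 of 19 alternatives did not call SPRY2. SPRED2, another inhibitor of RAS-ERK signaling, had a log2 fold change of -1.59 (SE 0.59, adjusted p = 0.309 in edgeR), with 12.6, 29.3 and 13.1 CPM against 20.5 to 112 CPM.

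ETV5, an ETS factor induced by FGF, had 43.5, 44.8 and 43.5 CPM with NLS-2SA-YAP1, against 46.5 to 173 CPM with YAP1-MAML2-v2. The groups did not overlap, with a gap of less than 2 CPM, and the log2 fold change was -0.74 (SE 0.32, adjusted p = 0.367 in edgeR). DUSP6, the ERK phosphatase often read as an FGF target, had 15.4, 90.9 and 81.4 CPM against 17.7 to 154 CPM. SPRY1 and SPRY4 had log2 fold changes of -0.62 (SE 0.85) and -0.55 (SE 0.91), and ETV4, a relative of ETV5, had 1.25 (SE 1.10). Their groups overlapped, as did those of DUSP6, whose log2 fold change was -0.65 (SE 0.76). Between regions 9 of 13 were lower in extra axial tumors, 0 were called by edgeR and 0 had an unadjusted p under 0.05. ETV5, DUSP4 and IL17RD had the smallest p-values there, with log2 fold changes of -0.63 (SE 0.31), -1.91 (SE 1.14) and -1.16 (SE 0.71).

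**Figure D4:**
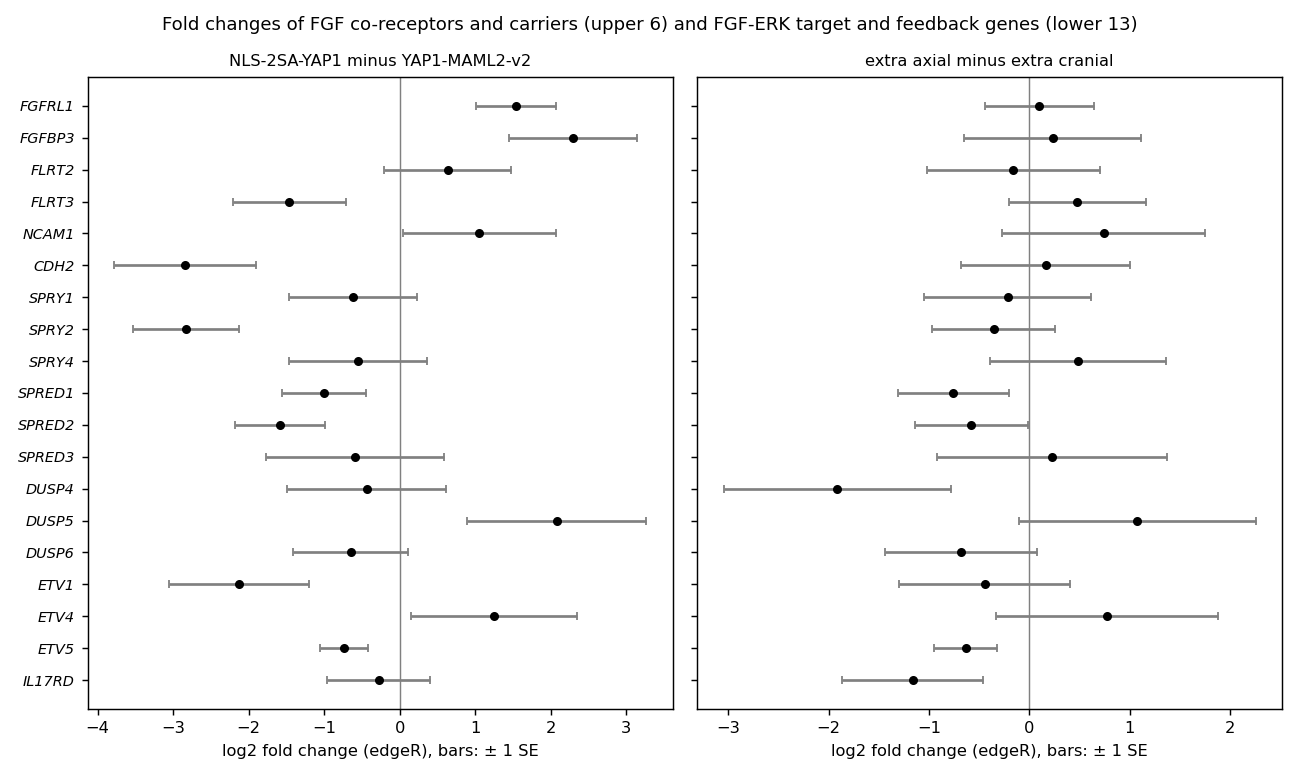
Points give edgeR log2 fold changes with bars of ± 1 SE for the 6 tested FGF co-receptors and carriers with no value of 0 or 1 and 13 FGF-ERK target and feedback genes, between constructs (left) and regions (right). Between constructs SPRY2 and CDH2, both at -2.84, lie farthest to the left and FGFBP3 at 2.29 farthest to the right, and 0 of the 19 passed edgeR's test.

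The genes with the pattern most like each member were taken by Pearson's r of log2 CPM over the 10 tumors, as a description. The search ran over 11735 genes, so high values arise by choice alone. FGF7 was closest to SGK1, a kinase gene (r = 0.98), and to PLEKHH2 (r = 0.97). All 3 were highest in YAP1-MAML2-v2 replicate 7, where SGK1 had 706 CPM and PLEKHH2 415 CPM, and lowest in replicate 4. FGFR3 was closest to UBE2QL1 (r = 0.96) and KIF1B (r = 0.95), FGFR2 to PTPRG (r = 0.95) and ACVR2A (r = 0.92). FGF1 was closest to HAGHL and RHBDD2 (both r = 0.96), and FGF18 to CCNG1 (r = 0.96) and SYNJ2 (r = 0.91). FGFR1, FGF2 and FGFR4 had lower highest values, and their closest were DNAJB4 (r = 0.86), CWC25 (r = 0.86) and FAM179B (r = 0.89). Replicate 7 weighs on the values of FGF7, FGFR3, FGFR2 and FGF1, all of which were highest there.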

How the data were processed

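RNA of 10 tumors was made into stranded mRNA libraries, per the labels' protocols. Reads were counted with HTSeq on mm10, per the submitters' processing notes; the sources used here name no aligner, annotation, strand setting or version. All deposited files list the same 16895 genes under human-style symbols, and the step from mouse genes to those symbols is not given either. The deposited values are whole numbers and were treated as estimated counts, because values of 1 were 4.54 to 6.82 times as frequent as values of 2 in a library, which plain counts would not give. Depth is therefore unknown, and no counting intervals are given.

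A filter on low values (filterByExpr by construct, minimum count 10) passed 13707 genes, 9 of the 10 members among them. Tests used the quasi-likelihood method of edgeR 4.0.16 in R 4.3.3 on TMM-scaled values, robust, with construct and region as terms over all 10 tumors. Replicate 7 is fitted by its own region term. DESeq2 1.42.0 and limma 3.58.1 gave alternatives. CPM came from TMM-scaled totals, log2 CPM used a prior count of 2, and gene lengths and positions came from GENCODE M21 (mm10).

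The members and gene lists were chosen with earlier results of these data known. Named pathway genes are, per list and comparison, up to 3 tested genes of smallest p, with SPRY1, SPRY2, SPRY4, DUSP6, ETV4, ETV5, FGFRL1 and KLB; FRS2, FGF17, FGF19 to FGF22, GLCE and KL were named after their values were seen. Marker lists cover meninges, skeletal muscle, bone and cartilage, neurons, astrocytes, oligodendrocytes, ependyma and choroid plexus, keratinocytes, adipocytes, endothelium and macrophages.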

Additional observations from a re-analysis of the deposited data

Results flagged for a closer look

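FGF9 in NLS-2SA-YAP1 replicate 2, listed at 0, had a log2 CPM of -4.19 (prior count 2), and it stood far below the other 5 extra cranial tumors. Its gap to the nearest of them was 0.727 of the whole range, above the limit of 0.625 for 6 libraries. Of 18 groups examined in the 9 tested members, this was the 1 group that passed, and chance passes about 1 in 20. The extra cranial group mixes both constructs, and NLS-2SA-YAP1 replicate 1, an extra axial tumor outside it, had FGF9 listed at 1. A deposited 0 has no clear scale in these files, and the prior count sets its log2 CPM, so the gap is no measure of the size of a difference.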

How the results depend on the processing

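No receptor or ligand was called between constructs or regions under any alternative run, and of 342 refitted values of the 9 tested members 317 kept their sign and side of the threshold and 25 changed sign. Counts over all genes moved more. Between constructs edgeR called 2 genes, 4 with no filter on low values, 4 in extra cranial tumors alone and 0 without both YAP1-MAML2-v2 replicates 6 and 7, an alternative chosen after seeing the data. DESeq2 called 685, limma-voom with quality weights 92 and limma on log2 CPM 4. Between regions edgeR called 0 genes, DESeq2 31, and edgeR without both of those replicates 1. For the interaction DESeq2 called 204 genes against 1. Leaving out 1 tumor gave 0 to 2 genes between constructs and 0 to 1 between regions. The causes were not tested.

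Values that changed sign were small or uncertain. Between constructs they were FGFR2 (0.59 and 0.37 in the voom and log2 CPM fits), SPRY1 and DUSP6 (0.026 and 0.034 in voom), and, without the region term, FGFR3 (-0.96), FGF2 (-0.053), FGF7 (-0.18) and FGF13 (-0.48). In extra cranial tumors alone they were FGFR1 (-0.025), FGF2 (-0.43) and SPRY1 (0.033). Between regions they were FGFR4 (-1.16 in voom, -0.060 on log2 CPM), FGF18 (0.061 in voom, 0.13 without the construct term) and NCAM1 (-0.65 in voom). Without both replicates 6 and 7 they were FGFR1 (0.15), FGF12 (0.32) and FLRT1 (0.42).

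Leaving out 1 tumor, log2 fold changes between constructs ran from -0.021 to 0.61 for FGFR1, -0.68 to 0.51 for FGFR2, -0.42 to 0.71 for FGF2, -4.83 to 0.080 for FGF14 and -1.23 to 0.16 for SPRY1. Between regions they ran from -0.54 to 0.15 for FGFR1, -1.01 to 2.58 for FGFR4, -6.60 to 0.32 for FGF12, -1.43 to 1.38 for NCAM1 and -1.65 to 0.55 for FLRT1. FGF14 holds 6 values of 0 or 1, FGF12 3 and FLRT1 2, so the size of their fold changes has no clear scale.

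The replicate block was fitted to replicates 1 to 3 of each construct alone, so few tumors were left to estimate the spread. With it edgeR called 36 genes between constructs and 6 between regions, and 0 members. Under the block FGF2 was -0.082 between constructs, and between regions FGFR1 was 0.34, FGFR2 0.68, FGFR4 -0.24 and FGF7 0.25. Deviations of same-numbered tumors correlated at 0.146, 0.342 and 0.0199, and those of unlike numbers at -0.246 to 0.109. Not every tumor correlated best with its own number. These values cannot decide whether same-numbered tumors were paired, because the tumors are few and regions differ within numbers 1 and 2. Depth is unknown, which limits FGF9, FGF10 and other genes with values of 0 or 1.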

Other observations

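By construct, the 6 oligodendrocyte markers summed to 184 to 461 CPM in NLS-2SA-YAP1 tumors and to 35.8 to 348 CPM in YAP1-MAML2-v2 tumors. The 7 ependyma and choroid plexus markers summed to 55.5 to 188 CPM against 0.0851 to 231 CPM. The 6 endothelial markers summed to 161 to 490 CPM against 153 to 954 CPM, and the 6 macrophage and microglia markers to 415 to 605 CPM against 262 to 1713 CPM. The 7 keratinocyte markers, of cells that express the FGF7 receptor, summed to 68.9 to 117 CPM against 27.6 to 116 CPM. In each list the ranges of the constructs overlapped.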
